A study of Mus musculus with 6 samples.

Results

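The comparison described here set the second Mettl3 knockout (KO2) against control in mouse embryonic stem cells. It rests on 4 of the 6 libraries of the series, 2 from KO2 cells and 2 from control cells, and on 12974 protein-coding genes drawn from the 68473 transcripts of the deposited table. Each gene was represented by its longest spliced protein-coding transcript among those listed. All groups were C57BL/6 mouse embryonic stem cells, grown with serum, LIF, the GSK3 inhibitor CHIR99021 and the MEK inhibitor PD0325901. Control cells carry the name Mettl3 control and KO2 cells the name Mettl3 KO2. How the knockouts were made, and whether each is 1 clone, the sources used here do not say. A further 2 libraries came from a first knockout (KO1), and they enter here as a share of the estimate of spread and as a point of reference.

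Mettl3 is the catalytic subunit of the nuclear complex that writes N6-methyladenosine (m6A) on RNA, and in embryonic stem cells the mark is known for limiting the lifetime of pluripotency transcripts. RNA polymerase II usually halts shortly after it starts a gene, held by the factors NELF and DSIF, and is released into elongation by the kinase P-TEFb. In mNET-seq, chromatin is cut with micrococcal nuclease, RNA polymerase II is immunoprecipitated with an antibody, and the short RNA inside it is sequenced, so that reads mark where polymerases sit.

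The values are an escaping index, a log2 ratio within each transcript. The windows it compares are not stated in the sources used here. Across the 12974 genes the control index rose with genomic span (Spearman's rho = 0.688, a description across genes). Such a rise would be seen in a ratio of downstream to start signal that is not normalised to length, but the formula is unknown. On that assumption, a lower value is read here as less downstream signal for a given signal at the start. The index is neither a level of RNA nor a total of polymerase. Read depth is unknown. Replicates correlated across genes at r = 0.969 in control and 0.977 in KO2. Whether the replicates are separate cultures is not stated in the labels. The p-values then reflect the spread between these samples alone, which may be technical. All 10 stem cell markers checked were listed, along with 3 of 8 fibroblast or feeder markers, 0 of 5 endoderm, 1 of 4 trophoblast and 1 of 3 neural markers. In a second fibroblast or feeder list, 8 of 14 genes were measured. Listing shows that a ratio was given, and not how abundant an RNA was.

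Promoters are printed for the first 3 called falls and the first 3 called rises whose RefSeq start lay within 100 nt of the transcript start on mm10 (GRCm38.p6), because the size of the change went with promoter CpG content, as given further on. Each run is the 250 bases before the start, 5′ to 3′ on the strand of the gene, and capitals mark CpG dinucleotides. The genes that fell were Cntln (chr4:84884059-84884308, plus strand), which encodes centlein, a protein of the centriole, St3gal4 (chr9:35116865-35117114, minus strand), a sialyltransferase, and Capn7 (chr14:31336388-31336637, plus strand), a calpain protease.
Cntln: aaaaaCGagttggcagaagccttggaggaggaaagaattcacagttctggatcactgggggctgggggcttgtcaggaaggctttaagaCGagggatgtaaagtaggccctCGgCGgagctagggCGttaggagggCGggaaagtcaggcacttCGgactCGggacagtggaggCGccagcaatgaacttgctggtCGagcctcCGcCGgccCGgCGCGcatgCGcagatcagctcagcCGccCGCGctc
St3gal4: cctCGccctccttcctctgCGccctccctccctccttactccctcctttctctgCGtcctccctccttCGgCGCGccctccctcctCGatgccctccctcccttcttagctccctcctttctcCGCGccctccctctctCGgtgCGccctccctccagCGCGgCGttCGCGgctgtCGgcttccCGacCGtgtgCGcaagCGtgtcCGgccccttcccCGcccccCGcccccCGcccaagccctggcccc
Capn7: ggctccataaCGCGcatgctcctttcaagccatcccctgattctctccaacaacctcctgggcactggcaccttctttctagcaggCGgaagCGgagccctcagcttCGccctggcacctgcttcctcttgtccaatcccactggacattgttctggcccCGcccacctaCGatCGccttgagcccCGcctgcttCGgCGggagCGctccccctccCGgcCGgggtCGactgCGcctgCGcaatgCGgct
The genes that rose were Invs (chr4:48279510-48279759, plus strand), encoding inversin, a protein of the cilium, Cdk18 (chr1:132139686-132139935, minus strand), a cyclin-dependent kinase, and Serpinb6b (chr13:32965011-32965260, plus strand), a protease inhibitor.
Invs: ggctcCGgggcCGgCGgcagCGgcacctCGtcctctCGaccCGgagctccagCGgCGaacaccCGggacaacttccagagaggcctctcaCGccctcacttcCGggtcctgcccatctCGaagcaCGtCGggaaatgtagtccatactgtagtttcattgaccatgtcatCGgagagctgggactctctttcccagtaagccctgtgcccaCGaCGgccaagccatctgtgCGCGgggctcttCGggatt
Cdk18: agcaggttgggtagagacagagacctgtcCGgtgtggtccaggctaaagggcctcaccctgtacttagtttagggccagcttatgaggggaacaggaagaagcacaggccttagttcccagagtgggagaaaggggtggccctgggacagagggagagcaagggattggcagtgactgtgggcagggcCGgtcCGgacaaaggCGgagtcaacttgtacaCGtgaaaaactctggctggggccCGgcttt
Serpinb6b: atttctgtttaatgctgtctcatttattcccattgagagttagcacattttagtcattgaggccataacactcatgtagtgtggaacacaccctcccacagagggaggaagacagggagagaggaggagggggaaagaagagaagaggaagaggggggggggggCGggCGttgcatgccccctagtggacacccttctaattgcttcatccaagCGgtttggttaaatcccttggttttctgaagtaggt
The windows of Cntln, St3gal4 and Capn7 held 19, 25 and 18 CpGs. Those of Invs, Cdk18 and Serpinb6b held 21, 6 and 3.

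Mettl3 itself (chromosome 14, 52294841 to 52305128, mm10, minus strand, 11 exons) had an index of 2.69 and 2.46 in the control libraries and 2.10 and 2.30 in KO2. Both KO2 libraries lay below both controls. The difference was -0.37 ± 0.19 (SE) on the log2 scale and did not pass the limma test (adjusted p = 0.170), and after centring it had the opposite sign, at 0.18. Because the index is a ratio of signal along the gene, these values do not check the knockout.

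The index was lower in KO2 over most coding genes. The median over genes was 4.69 and 4.70 in the control libraries (4.70 ± 0.0080, SD, n = 2) and 4.15 in each KO2 library (4.15 ± 0.0028, SD, n = 2), a difference of -0.55 on the log2 scale. On the linear scale the median ratio was 25.8 and 26.0 in control and 17.8 and 17.7 in KO2, which is a change of -31.6%. The difference was far larger than the spread between replicates. The exact permutation test over the 4 libraries (two-sided, 6 splits) gave p = 0.333, the smallest p that 2 against 2 libraries allow. The percentile that cuts off the lowest 5% of genes in each library was lower too, at 0.56 and 0.59 in control and -0.05 and -0.02 in KO2. The genes below it need not be the same in each library.

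**Figure D1:**
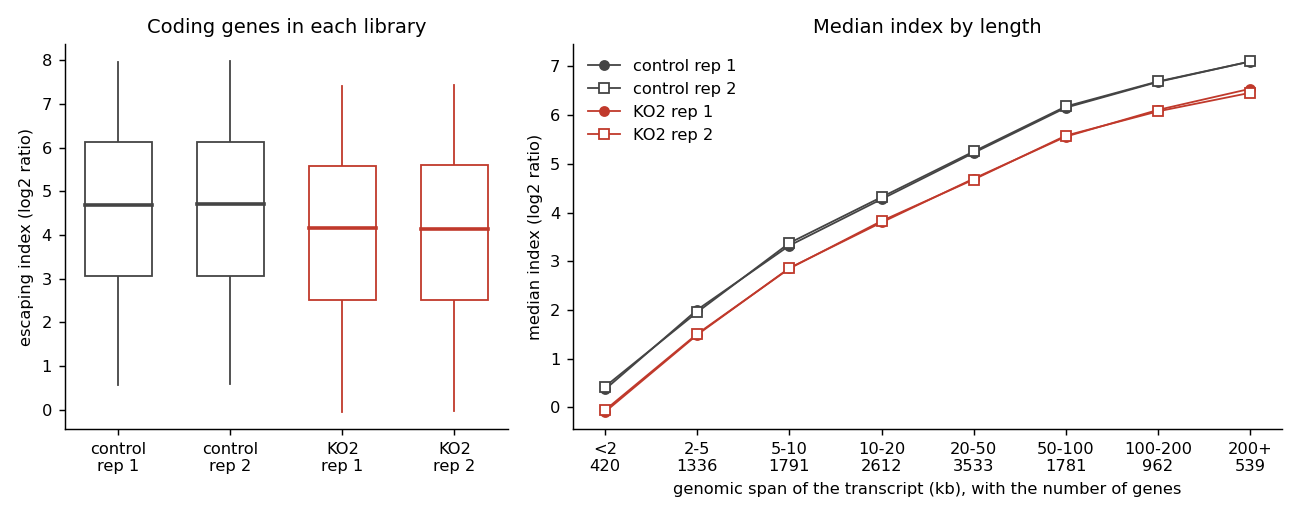
Escaping index (log2 ratio) of the 12974 coding genes in the control and KO2 libraries. Left, boxes span the quartiles, the thick line is the median and the thin lines reach the 5th and 95th percentiles. Right, each line joins 1 library's medians over classes of genomic span (kb, with the number of genes below), and both KO2 lines lie below both control lines in all 8 classes.

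Of the 12974 genes, 11048 (85.2%) had a lower mean index in KO2 and 1926 a higher one. Both KO2 libraries lay below both controls in 8591 genes (66.2%) and above both in 674 (5.2%). With limma, 3590 genes (27.7%) were called lower and 67 (0.516%) higher at a Benjamini-Hochberg adjusted p under 0.05, 28.2% in all. In each of these the KO2 libraries did not overlap the controls. The called falls had a median of -1.06 and ran from -0.56 to -2.94, and 2042 of them were by 1 or more. The called rises had a median of 1.07 and ran from 0.60 to 2.23, and 38 were by 1 or more.

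The calls depended on having 2 libraries in both groups. Leaving 1 of these out leaves a group of 1 library and 2 residual degrees of freedom, against 3 with all libraries. The counts therefore cannot show the weight of a particular library. The difference of library medians stayed between -0.554 and -0.543 in these fits. Without control replicate 1 the number of called genes was 984, and it was 0 without control replicate 2, without KO2 replicate 1 or without KO2 replicate 2. At an unadjusted p under 0.05, 4071 to 4820 genes were lower and 158 to 205 higher in those 4 fits.

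Centring each library on its median took away the shift of 0.55 and with it every call. The smallest adjusted p was then 0.0846, for Invs, and 1586 genes were lower and 1404 higher at an unadjusted p under 0.05, against 5710 and 185 as deposited. All calls below are therefore for the index as deposited, and centred values say only how a gene moved relative to the typical gene. The spread of changes was still wider than replicate error. The interquartile range of the change was 0.71, and that of replicate differences combined the same way was 0.38.

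**Figure D2:**
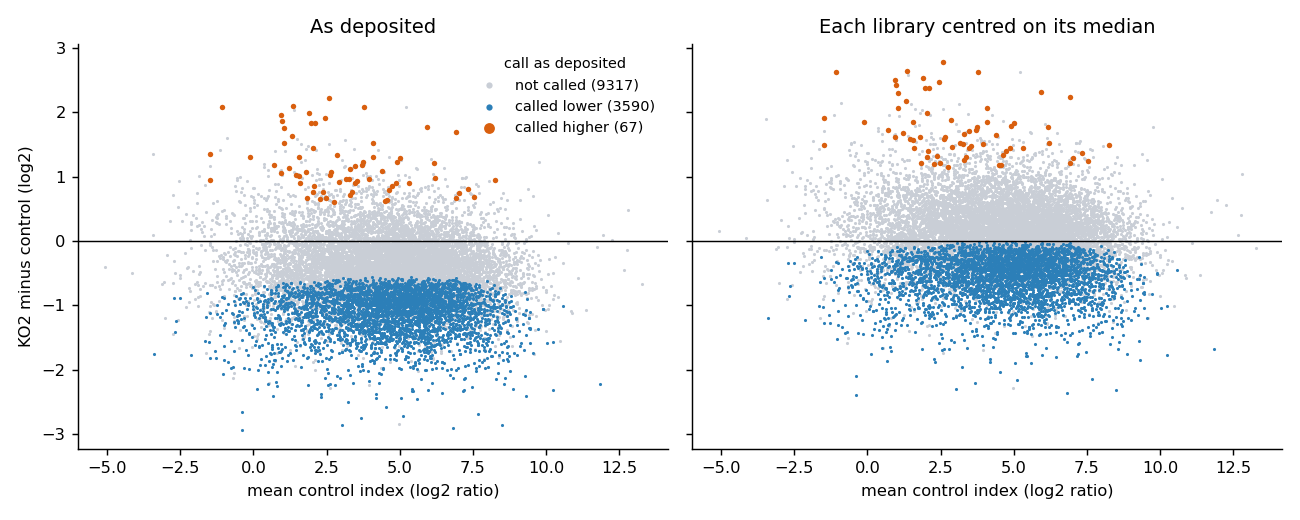
Difference between KO2 and control means (log2) against the mean control index (log2 ratio), with 1 point per coding gene, as deposited (left) and after each library was centred on its median (right). Colours give the calls made as deposited (3590 lower, 67 higher), and centring moves the cloud up by 0.55.

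Among the genes with the strongest evidence for a fall, Cntln had an index of 5.41 and 5.46 in control and 3.12 and 3.10 in KO2. The change was -2.33 ± 0.16 (SE, adjusted p = 0.0181), which leaves 0.199 of the control ratio. After centring the change was -1.78. Man2a1, a mannosidase of N-glycan processing, read 6.93 and 6.91 in control and 4.93 and 4.89 in KO2. St3gal4, which adds sialic acid to glycans, went from 5.84 and 6.08 to 3.66 and 3.63. Capn7 went from 4.27 and 4.34 to 2.37 and 2.13. In all 4 genes the drop was many times the gap between replicates, which their choice by smallest p favours.

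Bard1, the partner of Brca1 in DNA repair, read 7.54 and 7.67 in control and 5.65 and 5.62 in KO2. Slc25a35, a mitochondrial carrier, read 3.29 and 3.53 against 1.14 and 1.26. These genes started from quite different control levels. Liph (a lipase), Cemip2 (a transmembrane hyaluronidase), Qrich2 and Eif5a2 (a translation factor) changed by -1.94, -1.99, -1.96 and -1.83, each with an SE of 0.16 or 0.17. Smarca2, a catalytic ATPase of BAF remodelling complexes, was read on a listed transcript of 7 exons and changed by -2.22 ± 0.19 (SE), from 0.55 and 0.45 to -1.73 and -1.70.

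The largest called falls were noisier. Nppb, a natriuretic peptide, read 0.32 and -1.11 in control and -3.43 and -3.23 in KO2, a change of -2.94 ± 0.48 (SE). In at least 1 library the value of Nppb was shared exactly by 6 other genes. Myof (myoferlin) changed by -2.90 ± 0.43, Vrk2 (a kinase) by -2.86 ± 0.48, Hps6, a subunit of a lysosome biogenesis complex, by -2.85 ± 0.35 and Gm527 by -2.75 ± 0.70 (SE). In each of these 5 the 2 control libraries differed by 1 or more, so the sizes are less certain than for Cntln. Igf2, an imprinted growth factor, had the smallest p of the genes spanning 5 to 10 kb, with 0.81 and 0.54 in control and -1.68 and -1.80 in KO2 (-2.41 ± 0.22, SE). Its transcript overlaps 2 other annotated genes.

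Rises were few and some were large. Invs read 3.68 and 3.85 in control and 5.86 and 5.83 in KO2, a change of 2.08 ± 0.17 (SE, adjusted p = 0.0181), or 4.24 times the control ratio. Cdk18 read 7.06 and 6.79 against 8.81 and 8.45 (1.70 ± 0.22, SE). Serpinb6b read -0.92 and -1.25 against 0.82 and 1.18 (2.08 ± 0.28, SE). No KO2 library of these 3 genes came near a control, which their choice by smallest p and no overlap favours.

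Tmem35b had the largest called rise, 2.23 ± 0.31 (SE), from 3.00 and 2.15 to 4.77 and 4.85. Phb, the mitochondrial scaffold protein prohibitin, rose from 3.51 and 3.42 to 4.56 and 4.69. Oas1d, an oocyte member of the oligoadenylate synthetase family, changed by 1.87, Wfikkn1 (a secreted protease inhibitor) by 1.96, Pbld2 by 1.84, Jrkl by 1.63, Zc3h10 (a zinc finger RNA-binding protein) by 1.30, Morf4l2 (a chromatin protein) by 1.13 and Rps6kb2 (an S6 kinase) by 0.96. Cyb561d2 and Plac8l1 rose by 2.10 ± 0.54 and 1.99 ± 0.51 (SE), with more spread. Oas1d, Wfikkn1, Pbld2 and Plac8l1 each had a value that 5 or more other genes shared exactly in at least 1 library. That held for 662 of all 12974 genes, and these 4 changes are less certain for it. The 67 called rises had a control median of 2.89 and 2.83, against 4.83 and 4.84 for the called falls and 4.69 and 4.70 over all genes. The calls use these same control values, which favours low control values among rises. The gap is therefore no test of a low start. The listed transcript started more than 1000 nt inside the gene in 14 of the 67 rises (20.9%) and in 325 of the 3590 falls (9.05%), against 1587 of all 12974 genes (12.2%).

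**Figure D3:**
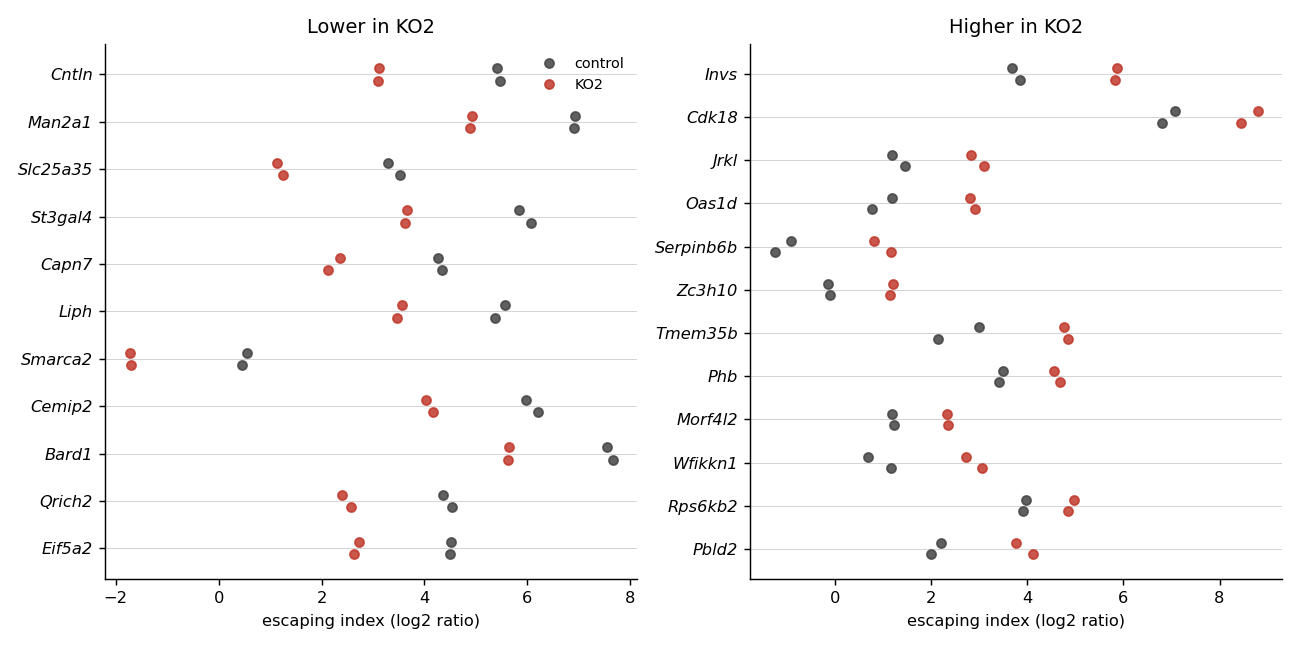
Escaping index (log2 ratio) in each control (grey) and KO2 (red) library for called falls (left) and called rises (right) with the smallest p. Each point is 1 library, and the KO2 points lie apart from the control points in every gene plotted, as the choice of genes required.

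The fall was spread over genes of every length. The median change was -0.50 in the 420 genes under 2 kb, -0.49 in the 1791 genes of 5 to 10 kb, -0.64 in the 1781 genes of 50 to 100 kb and -0.62 in the 539 genes of 200 kb and over. The share called lower was 19.5% in the shortest class, 33.1% at 50 to 100 kb and 25.6% in the longest, against 27.7% of all genes. In control the class medians ran from 0.37 and 0.43 in the shortest genes to 7.10 in each library for the longest, and in KO2 from -0.09 and -0.05 to 6.54 and 6.46. The KO2 line was therefore a nearly parallel copy of the control line, set lower. By these library medians the longest class fell 0.13 more than the shortest, a gap that was 0.02 once genes with a value shared by 5 or more other genes were left out and 0.35 on the log2 scale of the ratio plus 1.

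The starting index made as little difference. With genes put in classes by control replicate 1 and compared with control replicate 2, the median change lay between -0.51 and -0.64 in all 10 classes, from a ratio under 1 to a log2 index above 8. Medians by number of exons ran from -0.55 to -0.64, and those by first intron length from -0.51 to -0.65. Medians in 5 equal classes of GC content of the spliced transcript ran from -0.51 to -0.63. GGACT, a common form of the m6A consensus, was counted per kb of spliced transcript on the sense strand. The median was -0.52 in 1148 genes with none and -0.53 in 1534 genes with more than 2 per kb. Across genes the correlation of the change with GGACT density was rho = 0.018, and with genomic span it was -0.074 (descriptions over 12974 genes). On the autosomes and X the median change ran from -0.48 on chromosome 7 to -0.66 on chromosome 12. Genes that overlap another annotated gene (6508) had a median of -0.56, and those that do not (6466) of -0.57.

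Where a transcript starts also went with the change. With 1 transcript per gene, the median change was -0.60 in the 9986 genes whose transcript started within 100 nt of the annotated 5′ end of the gene. It was -0.45 in the 1401 that started farther in, up to 1000 nt, -0.45 in the 867 beyond that and up to 10000 nt and -0.43 in the 720 that started farther in still. These medians spread about as widely as those over length classes. The steps were larger over all listed coding transcripts, which add the other isoforms of each gene. Those that start within 100 nt of the first listed start of their gene (20006 of them) had a median change of -0.58. Those starting farther downstream, up to 1000 nt, had -0.32, those beyond that and up to 10000 nt -0.08 and those farther in -0.05. Retained-intron models, which keep an intron and are mostly noncoding, gave -0.56, -0.32, 0.03 and 0.02 for the same positions, and models annotated for nonsense-mediated decay gave -0.55, -0.33, 0.08 and 0.06. After centring on the coding gene medians, the inner starts therefore sit above 0 and the first starts close to it.

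The same held inside genes. In 7081 coding genes with transcripts of both kinds, the median change was -0.57 for the first starts and 0.02 for starts more than 1000 nt downstream, and the first start was the lower in 80.9% of these genes. Transcripts of a gene share reads, and an annotated inner start need not be used as a promoter.

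Medians also differed between transcript classes, which differ in span and in where they start within a gene. Over all lengths the median change was -0.43 for coding transcripts, -0.33 for nonsense-mediated decay models, -0.35 for antisense transcripts and -0.25 for lincRNAs. It was -0.18 for retained-intron models, -0.10 for processed pseudogenes, which are copied from spliced RNA and usually lack a promoter, and -0.01 for unprocessed pseudogenes. Transcripts classed as bidirectional promoter lncRNAs, which start back to back with a coding gene, had -0.57, close to the median of coding genes at their first start. At spans of 2 to 10 kb the medians were -0.36 for coding, -0.20 for nonsense-mediated decay, -0.40 for antisense and -0.13 for retained-intron transcripts. Antisense transcripts were then below coding ones. At the first start, coding, retained-intron and nonsense-mediated decay models had similar medians, as given above. An effect of class apart from span and start was not tested.

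**Figure D4:**
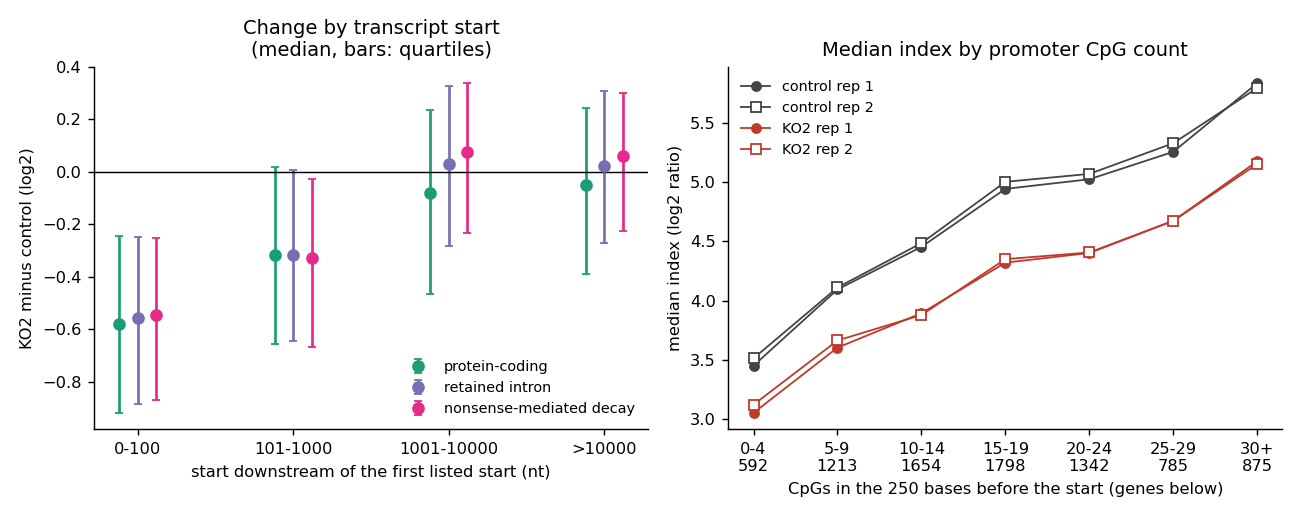
Left, median change between KO2 and control (log2) with quartile bars for 3 annotated transcript classes, by distance (nt) of the start from the first listed start of the gene, where medians run from about -0.56 at the first start to near 0 inside genes. Right, median index (log2 ratio) in each control and KO2 library by number of CpGs in the 250 bases before the start, with the number of genes below each class.

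Promoters could be matched for 8259 genes. The 592 genes with 4 or fewer CpGs in the 250 bases before the start had median indices of 3.45 and 3.51 in control and 3.05 and 3.12 in KO2. Their median change was -0.31, and 13.01% were called lower. Among all 8259 matched genes 2432 were called lower, and among all genes tested 27.7%. The 875 genes with 30 or more CpGs had 5.83 and 5.79 in control and 5.17 and 5.15 in KO2, with a median change of -0.64 and 33.1% called lower. Between 10 and 29 CpGs the medians lay between -0.60 and -0.64, so the step was at the CpG-poor end, as the plot of index by CpG count shows. Across genes the correlation was rho = -0.110, a description. Within genes under 10 kb the median change was -0.44 with up to 9 CpGs and -0.72 with 30 or more, and in genes of 50 kb and over it was -0.49 and -0.66. At 10 to 20 kb it was -0.45 and -0.48.

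Motifs were searched by letters on both strands of the same window. GGGCGG, the core of the GC box bound by Sp1 family factors, was in 63.5% of all matched promoters, 70.3% of those of called falls and 36.4% of the 33 matched called rises. It contains a CpG and so moves with CpG content. TATAAA, the TATA box core, was in 5.64% of all, 5.39% of falls and 0% of rises, and CCAAT in 38.2%, 39.8% and 30.3%. Of the printed windows, GGGCGG is in those of Cntln, St3gal4, Capn7 and Serpinb6b. CCAAT is in those of Capn7 and Cdk18, and TATAAA is in none of the 6. A match to letters is a description and not a site of binding.

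Gene groups were then read against the whole, for which the median change was -0.56 and 27.7% were called lower. Genes of the machinery that holds and releases polymerase had a median nearer 0. Of 17 pausing factors 3 were called lower, and their median was -0.18, or 0.37 after centring. Nelfb, a subunit of NELF, read 3.47 and 3.43 in control and 2.39 and 2.29 in KO2 (-1.11 ± 0.17, SE). Supt4a, the small subunit of DSIF, changed by -0.84 and Hexim1, which keeps P-TEFb inactive, by -0.80. Cdk9, the kinase of P-TEFb (-0.18), Ccnt1, its cyclin (-0.13), and Supt5, the large DSIF subunit (-0.16), did not pass the test.

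Of 22 elongation factors 5 were called lower (median -0.37, centred 0.18), among them Ell3 (-1.28), Supt16 of the histone chaperone FACT (-0.99) and Cdc73 of the PAF1 complex (-0.84). The Integrator complex, which cuts nascent RNA and ends transcription near promoters, had 8 of 16 subunits called lower (median -0.66, centred -0.11). Ints8 read 4.74 and 4.77 against 3.78 and 3.71, and Ints13 and Ints2 changed by -0.95 and -0.93. Of 32 Mediator genes 10 were called lower (median -0.48, centred 0.07), with the smallest p for Med12 of its kinase module (-1.14). Of 28 RNA polymerase subunits 11 were called lower (median -0.67, centred -0.13), with Polr2g at -1.26 and Polr3e at -1.53. Of 38 TFIID and general factors 9 were called lower, including Taf12 (-1.26) and Taf6 (-1.18).

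In the m6A pathway, 3 of 12 writer genes were called lower and none higher (median -0.45, centred 0.10). Wtap, the adaptor of the writer complex, read 1.23 and 1.34 in control and 0.45 and 0.53 in KO2. Cbll1, another subunit (-0.87), and Zcchc4, which methylates ribosomal RNA (-0.76), also fell. Mettl14, the partner of Mettl3, stood at -0.45 ± 0.26 (SE) and did not pass. Of 13 readers and erasers 6 were called lower (median -0.63, centred -0.09). Ythdf3, a cytoplasmic reader, read 6.36 and 6.37 against 5.30 and 5.27, and Ythdf2 (-0.92) and the nuclear reader Ythdc1 (-0.63) fell too. The erasers Alkbh5 (-0.48) and Fto (0.23) did not pass the test.

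Pluripotency genes had a smaller median fall than the whole (-0.56), and 22 of 27 were lower, against 85.2% of all genes. Of 27 listed, 6 were called lower and none higher, with a median of -0.22 (centred 0.32). Klf4 read 4.79 and 4.65 in control and 3.81 and 3.90 in KO2 (-0.87 ± 0.16, SE). Stat3, the effector of LIF, changed by -1.01, Fgf4 by -0.80, Tfcp2l1 by -0.71, Dppa2 by -0.67 and Nr0b1 by -1.23. The core factors moved little. Pou5f1 (2.78 and 2.90 against 2.77 and 2.56), Nanog (4.41 and 4.28 against 4.09 and 4.16), Sox2, Esrrb and Zfp42 had changes between -0.22 and 0.04, and none passed. Both KO2 libraries lay below both controls in Pou5f1, Nanog and Sox2, which held for 66.2% of all genes, and overlapped them in Esrrb and Zfp42. In Pou5f1 the nearest control and KO2 values, 2.777 and 2.768, were closer than the replicates of either group.

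Primed and lineage genes had the lowest median of the groups with 10 or more measured genes, -0.89 (centred -0.34), with 5 of 10 called lower. Dnmt3b, a de novo DNA methyltransferase, read 5.92 and 5.00 in control and 3.65 and 3.33 in KO2. Gsc (-1.61), Nes (-1.14) and Hand1 (-2.07) also fell. The value of Gsc was shared exactly by 14 other genes in at least 1 library. Gata3 (1.06 ± 0.31, SE) and Eomes (0.71 ± 0.31, SE) stood above control and did not pass. Only 10 of 26 entries were in the table, so the list says nothing of the other genes.

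Immediate early genes, which answer signals within minutes, had a median further below 0 than the whole. Of 28 immediate early genes 10 were called lower and 24 had both KO2 libraries below both controls, which held for 66.2% of all genes, with a median of -0.83 (centred -0.28). Fos read -0.91 and -1.08 in control and -2.71 and -2.96 in KO2, a change of -1.84 ± 0.22 (SE). Jun (-1.02), Junb (-0.93) and the phosphatases Dusp5 (-1.24), Dusp1 (-1.07) and Dusp6 (-1.27) fell. Egr1 (0.28 ± 0.37, SE) and Spry2 (0.37 ± 0.21, SE) did not pass. In the FGF and ERK pathway 12 of 28 were called lower (median -0.75, centred -0.21), with the receptor Fgfr1 (4.93 and 5.07 against 3.64 and 3.67) and the GTPase Nras (-1.03). The medium held a MEK inhibitor in both groups. Of 35 Wnt pathway genes and targets 8 were called lower (median -0.56, centred -0.01), including the receptors Fzd5 (-1.32) and Fzd6 (-1.51).

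Of 26 p53 targets 13 were called lower, with a median of -0.80 (centred -0.26). Trp53inp1, an inducer of cell death and autophagy, read 5.33 and 5.59 against 4.31 and 4.39. Mdm2, the ubiquitin ligase of p53 (-0.97), Phlda3 (-1.33), Rrm2b (-1.20), Ccng1 (-0.94) and Bax (-0.75) fell, while Cdkn1a, the p21 inhibitor, stood at -0.48 ± 0.17 (SE) and did not pass. Of 28 mitotic regulators 14 were called lower (median -0.75, centred -0.20). Aurkb, a mitotic kinase, read 4.53 and 4.45 against 2.88 and 2.91, and Haspin (-1.37) and Ccnb2 (-1.01) fell too. The value of Ccnb2 was shared exactly by 10 other genes in at least 1 library. Replication licensing genes had 8 of 32 called lower (median -0.55), and homologous recombination genes 5 of 25 (median -0.48), Bard1 among them.

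Replication-dependent histone genes are short, mostly without introns and present in near-identical copies, so reads may be shared between them. Of 35 measured, 12 were called lower (median -0.64, centred -0.09). Both KO2 libraries lay below both controls in 33 of the 35, which held for 66.2% of all genes. Genes that share reads are not separate observations. Hist2h2be read 1.70 and 1.83 in control and 0.15 and 0.19 in KO2, and Hist1h3d 2.91 and 2.99 against 1.73 and 1.82. Among chromatin regulators, 11 of 29 Polycomb subunits were called lower (median -0.71, centred -0.16), including the methyltransferase Ezh1 (-1.33) and Rybp (-1.30), a subunit of variant PRC1. Of 21 genes of H3K9 methylation and KAP1 silencing 7 were called lower (median -0.39, centred 0.16), with the methyltransferases Setdb1 (-1.35) and Ehmt1 (-1.43) well below control. Of 15 genes of DNA methylation and TET enzymes 4 were called lower, including Dnmt3a (-1.11) beside Dnmt3b. Chromatin remodellers had 11 of 33 called lower (median -0.57), with Chd2 (-1.07) and Actl6a (-1.25) beside Smarca2, and MLL and SETD1 subunits 4 of 19 (median -0.61), with Paxip1 at -1.44.

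Medians of housekeeping groups ran from -0.25 in the proteasome to -0.63 in heat shock chaperones. Of 85 cytosolic ribosomal protein genes 26 were called lower and 1, Rpl7a, higher (median -0.52, centred 0.03). Many of these genes have processed copies, which may share their reads. Rpl41 read 3.67 and 3.73 against 2.35 and 2.50. Mitochondrial ribosomal proteins had 18 of 74 called lower (median -0.42), respiratory chain and ATP synthase genes 27 of 90 (median -0.56) and translation factors 14 of 69 (median -0.45). Proteasome subunits had a median of -0.25 (centred 0.30) with 10 of 46 called lower. Psmc4, an ATPase of the 19S base, nonetheless went from 4.00 and 4.13 to 2.59 and 2.77. Heat shock chaperones had 9 of 22 called lower (median -0.63, centred -0.08), and Hspa5, the chaperone of the endoplasmic reticulum, read 4.42 and 4.40 against 3.56 and 3.59. Of 24 glycolytic genes 6 were called lower, led by Pkm (-1.18), and 1, Ldha, higher (0.66).

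Among families picked by symbol, 366 zinc finger (Zfp) genes had a median of -0.39 (centred 0.15), with 72 called lower (19.7%) and 2 higher, Zfp266 and Zfp771. Zfp318 had the smallest p of these, at -1.75 ± 0.17 (SE). Protocadherins, cell adhesion genes arranged largely in clusters with shared exons, had a median of -0.19 (centred 0.36), and 1 of 26, Pcdh11x, was called. On the other side, transmembrane (Tmem) genes had a median of -0.73 (centred -0.18), with 58 of 174 called lower and 3 higher. Rab GTPases had -0.73 (centred -0.18) and 18 of 58 called lower and 1, Rab3a, higher. F-box genes, substrate adaptors of ubiquitin ligases, had -0.69 (centred -0.14) and 22 of 56.

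Genes of intraflagellar transport and the ciliary transition zone had a median of -0.74 (centred -0.20), with 14 of 36 called lower. Tctn3, a transition zone protein, read 6.55 and 6.68 in control and 4.77 and 4.46 in KO2, and Ift52 (-1.50) and Bbs7 (-1.20) fell. Of 21 genes with a Tub symbol 9 were called lower and 1, Tuba1a, higher (median -0.75, centred -0.20). Solute carriers had 69 of 225 called lower and 1 higher (median -0.64, centred -0.09). Of these, Slc25a35, Slc25a15 (-1.52) and the thiamine transporter Slc19a2 (-1.54) had the smallest p. Kinesins had 8 of 33 called lower (median -0.45), ubiquitin-specific proteases 12 of 49 (-0.51) and TRIM genes 9 of 41 (-0.44). Coiled-coil (Ccdc) genes had 30 of 96 called lower and 2 higher (median -0.63), and collagens 6 of 18 lower (median -0.66). Hox genes had 2 of 10 called lower, Hoxb13 and Hoxa7. In 7 of these 10 genes a value was shared exactly by 5 or more other genes, so their changes are less certain. Of the 53 lists and families, 52 had a median below 0 as deposited, and 26 did after centring.

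**Figure D5:**
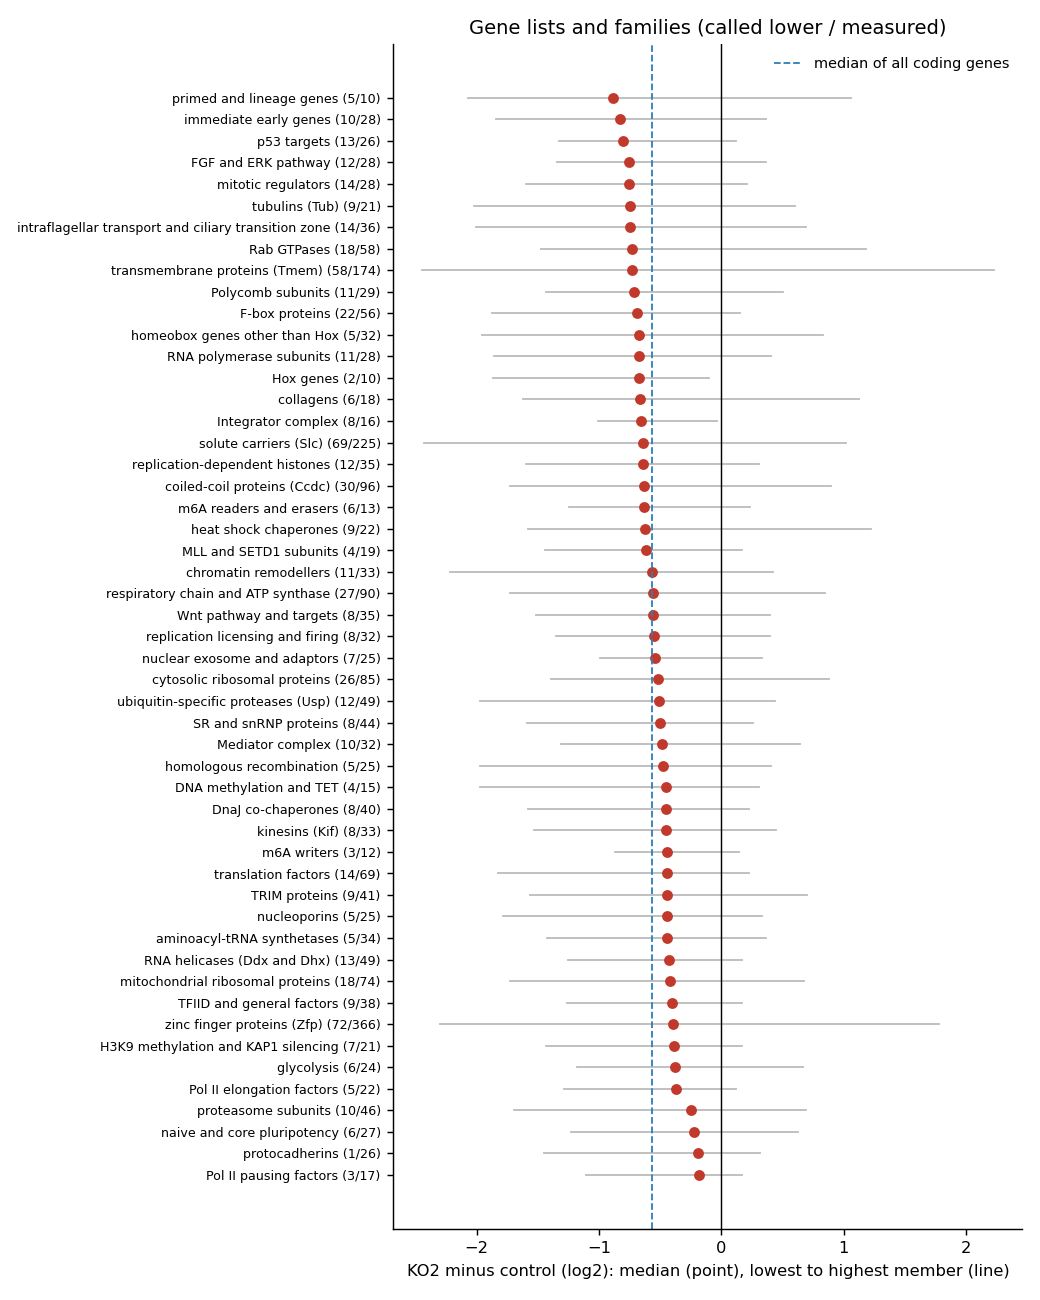
Median change between KO2 and control (log2, points) and the range over members (lines) for lists and families with 10 or more measured genes, with the number called lower and measured after each name. The dashed line is the median of all coding genes (-0.56). Medians run from -0.89 in primed and lineage genes to -0.18 in Pol II pausing factors.

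Compared with the first knockout, the second stood farther from control for the typical gene. The library medians were 4.33 and 4.34 in KO1, between those of control and KO2. The median difference between KO2 and KO1 was -0.19, and 67.2% of genes were lower in KO2. No gene passed the limma test of that difference (0%, smallest adjusted p = 0.120), while 2156 genes were lower and 451 higher at an unadjusted p under 0.05. Both knockouts are read against the same 2 control libraries, so their changes are not independent. Side by side, Cntln changed by -1.41 in KO1 and -2.33 in KO2, Liph by 0.08 and -1.94, Invs by 0.52 and 2.08, and Fos by -1.10 and -1.84. These genes were named for their p in KO2 against control, which favours a larger change in KO2. Some named genes went the other way, such as Qrich2 (-2.43 in KO1 and -1.96 in KO2) and Wtap (-1.05 and -0.79). Histone genes had a median change of 0.09 in KO1 and -0.64 in KO2, and heat shock chaperones of -0.10 and -0.63. Bag3, a co-chaperone, differed by -1.40 between KO2 and KO1 (adjusted p = 0.120).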

How the data were processed

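The authors deposited 1 table of log2 values, an escaping index per Ensembl transcript in 6 mNET-seq libraries. The submitters' processing notes list featureCounts, HISAT2 2.1.0, Trimmomatic 0.38 and CASAVA, and the mm10 build. The sources used here do not state their settings, the index formula or the use of strand. The values are on a log2 scale and were tested as deposited, with no added pseudocount and no rescaling. Of 68473 transcripts, 68397 matched GENCODE M21 without version and 76 did not. Each coding gene took its longest spliced coding transcript.

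One fit of all 3 groups was made with limma 3.58.1 (R 4.3.3, group means, variance trend, two-sided, 3 residual and 2.66 prior degrees of freedom), with Benjamini-Hochberg adjustment over 12974 genes and a threshold of 0.05. Values printed as ± with SE come from this fit. List and class medians were made with pandas 2.3.3 and the exact test with scipy 1.17.1 in Python 3.11.15. Promoters came from RefSeq on GRCm38.p6, matched by symbol, chromosome, strand and start, and windows with undetermined bases were left out.

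Genes named are, in each direction, the called genes of smallest p with no overlap of libraries (at most 12), the 5 largest called changes per direction, Mettl3, up to 3 members of each list by p, the called gene of smallest p per length class and, after centring, 6 per direction. Some genes under the rule are not reported here. Other members and genes were chosen after their values were seen. The 26 lists (670 entries, 584 measured) and 27 symbol families were chosen with earlier results of these data known. Of the 186 genes under the rule, 99 overlap no other annotated gene. Calls given here only are those of 2-cell-like genes (2 of 22 measured, 0 called) and of the second fibroblast or feeder list (8 of 14 measured, 1 called lower, Fbln1). Alternatives are under the closing section, and no column was of a sample outside the series.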

Additional observations from a re-analysis of the deposited data

Results flagged for a closer look

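Among the 186 named genes and the 51 lists and families with 10 or more measured genes, 2 genes and 2 lists were found in which all KO1 libraries lay on the other side of both controls from all KO2 libraries. Other genes were not searched. Hist1h3d read 2.91 and 2.99 in control, 3.32 and 3.38 in KO1 and 1.73 and 1.82 in KO2, a difference between KO2 and KO1 of -1.57 ± 0.16 (SE) that did not pass the limma test (adjusted p = 0.120). Mrpl41, a mitochondrial ribosomal protein, read -1.53 and -1.48 in control, -1.28 and -1.40 in KO1 and -2.89 and -3.25 in KO2, a difference of -1.73 ± 0.23 (SE, adjusted p = 0.131). The library medians of the 35 replication-dependent histone genes were 0.23 and 0.13 in control, 0.27 and 0.34 in KO1 and -0.48 and -0.36 in KO2, and the median difference between KO2 and KO1 was -0.78, which was not tested. Those of the 26 protocadherins were 3.54 and 3.28 in control, 3.77 and 3.75 in KO1 and 3.11 and 3.28 in KO2, with an untested median difference of -0.47. The nearest control and KO2 medians of the protocadherins, 3.2796 and 3.2790, were closer than replicates of either group, so these groups are not apart beyond their spread.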

How the results depend on the processing

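The number of genes called between KO2 and control was 0 with libraries centred on their medians and 0 after quantile normalization (1521 lower and 1436 higher at an unadjusted p under 0.05). It was 1741 of 6466 genes without those that overlap another gene, where fewer genes were tested. Leaving out each library in turn gave 0 to 2519. In the other fits it lay between 2519 and 3839, among them 2519 with KO2 and control alone and 2709 (2663 lower, 46 higher) with the replicate number as a block, which kept 2537 of the 3657 calls. Deviations of same-numbered libraries correlated at -0.0070 between control and KO2, 0.0020 between control and KO1 and 0.010 between KO1 and KO2. No shared effect of the replicate number was thus seen. With 2 libraries per group this cannot show whether samples were handled in pairs. The difference of library medians was 0 when centred, -1.87e-05 after quantile normalization, -0.556 with the longest genomic span, -0.460 with the mean of coding transcripts, -0.539 without overlapping genes, -0.558 without genes of mean index under 1, -0.524 on the log2 of the ratio plus 1, -0.587 for genes starting within 100 nt of the 5′ end (added after seeing the data) and -0.554 to -0.543 with 1 library left out. The extra change of the longest over the shortest genes, -0.130, was -0.0078 with the mean of coding transcripts, -0.294 without overlapping genes, -0.204 without genes of mean index under 1, -0.022 without values shared by 5 or more other genes, -0.346 on the log2 of the ratio plus 1 and -0.189 to -0.070 with 1 library left out. The cause of these differences was not tested. No gene was called between KO2 and KO1 under the alternatives run for it. Mettl3 changed sign, at 0.18 centred and 0.16 after quantile normalization, as did Ash2l (0.20 with the longest span) and the Aldoa copy ENSMUSG00000114515 (0.17 both ways). Of 186 named genes, 177 lost their call when centred and 29 with the mean of coding transcripts. List medians below 0 numbered 26 of 53 centred and 23 after quantile normalization. Depth is unknown, so the precision of a single ratio cannot be given.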

Other observations

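Kif3a, a motor of intraflagellar transport, read 5.57 and 5.24 in control and 4.20 and 4.34 in KO2, and Tubg1, the gamma-tubulin of centrosomes, 3.31 and 3.37 against 2.14 and 2.32.

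Medians of RNA processing groups outside the m6A pathway ran from -0.54 to -0.43, against -0.56 for all genes. Of 44 SR and snRNP genes 8 were called lower (median -0.50, centred 0.05), with the smallest p for Srsf7, a splicing factor, at 2.02 and 2.08 in control and 0.74 and 0.71 in KO2. Of 25 genes of the nuclear exosome and its adaptors 7 were called lower (median -0.54, centred 0.01), with Srrt, which links the cap-binding complex to decay, at 4.64 and 4.60 against 3.66 in both KO2 libraries. Of 49 Ddx and Dhx helicases 13 were called lower (median -0.43, centred 0.12), and of 25 nucleoporins 5 (median -0.44, centred 0.11), with Tpr at the largest change of those 25 (-1.79 ± 0.22, SE).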
